A study of Mus musculus with 5 samples.

Results

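The brush-border peptidases are 9 genes for enzymes that sit in the apical membrane of enterocytes, the absorptive cells of the gut lining: Anpep, Enpep, Xpnpep2, Dpp4, Mep1a, Mep1b, Ace, Naaladl1 and Dpep1. They were taken by symbol from the 27998 genes of the deposited gene table, and all 9 were present. Their transcripts were described in single epithelial cells of the ileum, the distal part of the small intestine, from 5 libraries of C57BL/6 mice that were 8 to 12 weeks old. Sham surgery preceded 3 of the libraries, and small bowel resection, in which a stretch of gut is removed, preceded 2. The labels give no further allele or agent for either group, and they do not say how many animals gave each library or how long after surgery the tissue was taken. Values were tested over libraries, so a p-value sets a difference against the variation between these libraries, which may be technical. Where groups of cells of the same library were compared, it was the variation of their difference from library to library.

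Digestion of protein ends at the brush border. Pancreatic proteases leave oligopeptides in the gut lumen, and the membrane peptidases of the microvilli cut these to amino acids, dipeptides and tripeptides that carriers such as Slc15a1 (PEPT1) and Slc6a19 (B0AT1) then take up. Enterocytes are born from crypt stem cells and mature as they move up the villus, and digestive enzymes are a textbook mark of that maturation. Aminopeptidases cut residues from the amino end of a peptide. Anpep (aminopeptidase N, chr7:79821803-79848210 on GRCm38) prefers neutral residues, Enpep (aminopeptidase A, chr3:129269177-129332749) acidic ones, and Xpnpep2 (chrX:48106913-48136982) releases a residue that stands before a proline. Dpp4 (chr2:62330073-62412315) removes dipeptides that end in proline or alanine. The meprins are zinc endopeptidases that cut inside the chain: Mep1a (chr17:43474324-43504143) encodes the alpha subunit and Mep1b (chr18:21072344-21100199) the membrane-anchored beta subunit. Ace (angiotensin-converting enzyme, chr11:105967948-105989964) removes dipeptides from the carboxyl end. Naaladl1 (chr19:6105781-6115989) encodes a relative of glutamate carboxypeptidase II, and Dpep1 (chr8:123186235-123201812) a dipeptidase.

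The matrices held between 1402 and 7233 cells and between 11749028 and 41281731 unique molecular identifiers (UMIs, each 1 captured transcript molecule) per library. Of 19404 cells, 18235 were kept, and their clusters were named from marker genes: 11288 enterocyte-like, 3280 immature enterocyte-like, 1005 cycling-like, 656 stem-like, 1013 Paneth-like, 521 goblet-like, 451 T cell-like and 21 tuft-like cells. The libraries did not mix within the enterocyte-like class. Cluster 11 held 489 of the 549 enterocyte-like cells of sham 1, cluster 5 held 1241 of the 1597 of sham 3, clusters 6 and 9 held 1122 and 922 of the 2353 of resection 1, and cluster 1 held 2264 of the 4442 of resection 2, while clusters 3, 4 and 8 held most of sham 2. Sham 1 and resection 1 also shared clusters 7, 16 and 17, which held at most 9 cells of the other libraries together, and had the highest median mitochondrial shares (13.7% and 11.7% against 7.24% to 9.19%). These 2 libraries are called set A below and the other 3 set B; what separates the sets is not given in the sources used here. Pairs of libraries shared between 6 and 47 cell barcodes.

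All 9 genes were at their highest in enterocyte-like cells. Levels are given as CPM, the UMIs of a gene in a class and library scaled to a total of 1000000, as a mean ± SD over 5 libraries, with no test between classes because the classes were built from the same cells. Anpep was at 256 ± 87.3 CPM in stem-like cells, 268 ± 89.6 in cycling-like cells, 637 ± 296 in immature enterocyte-like cells and 3348 ± 593 in enterocyte-like cells. Enpep stood at 94.8 ± 33.5 CPM in stem-like, 303 ± 112 in immature and 999.2 ± 291 in enterocyte-like cells. Xpnpep2 was at 27.1 ± 12.7, 51.2 ± 37.1 and 252 ± 78.1 CPM in the same order. The aminopeptidases were thus at 4.57% to 13.3% of their enterocyte level in the stem-like cells of each library. The summed level of the 7 enterocyte markers stood at 8.30% to 14.7% of its enterocyte level in the same stem-like cells and at 8.35% to 18.6% in cycling-like cells, a range that overlaps that of the peptidases.

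Dpp4 went from 61.0 ± 18.2 CPM in stem-like cells to 113 ± 50.6 in immature and 459 ± 163 in enterocyte-like cells. Of the meprins, Mep1a was at 44.9 ± 17.0, 129 ± 60.0 and 450 ± 94.7 CPM along these classes. Mep1b was at 65.2 ± 20.1, 301 ± 76.1 and 832 ± 99.5 CPM. Ace was at 27.7 ± 10.0 CPM in stem-like, 41.4 ± 16.7 in immature and 272 ± 178 in enterocyte-like cells, and its spread in the last class came from resection 1 at 578 CPM against 112 to 246 in the other libraries. Naaladl1 was at 62.9 ± 47.2, 168 ± 118 and 443 ± 204 CPM, and Dpep1 at 76.2 ± 36.1, 204 ± 110 and 747 ± 97.7 CPM. As a median share of the enterocyte level, immature cells stood highest for Naaladl1 (32.9%), Mep1b (31.4%) and Enpep (27.5%) and lowest for Ace (15.4%), Anpep (15.3%) and Xpnpep2 (13.7%), with the enterocyte markers at 16.8%. Sham 1 stood apart here, with these markers at 38.1% in its immature cells against 12.6% to 19.2% in the other libraries. The library ranges of stem-like, cycling-like and Paneth-like cells overlapped one another for 8 genes, so no order is read from the ranges of these 3 classes. Naaladl1 was the exception by range, with Paneth-like cells at 6.20 to 29.5 CPM and cycling-like cells at 31.6 to 117. Ranges ignore that the classes share libraries. Within each library, Enpep and Mep1b were higher in cycling-like than in stem-like cells. Dpp4 and Naaladl1 were higher in cycling-like than in Paneth-like cells of each library. Naaladl1 was also higher in stem-like than in Paneth-like cells of each library.

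**Figure D1:**
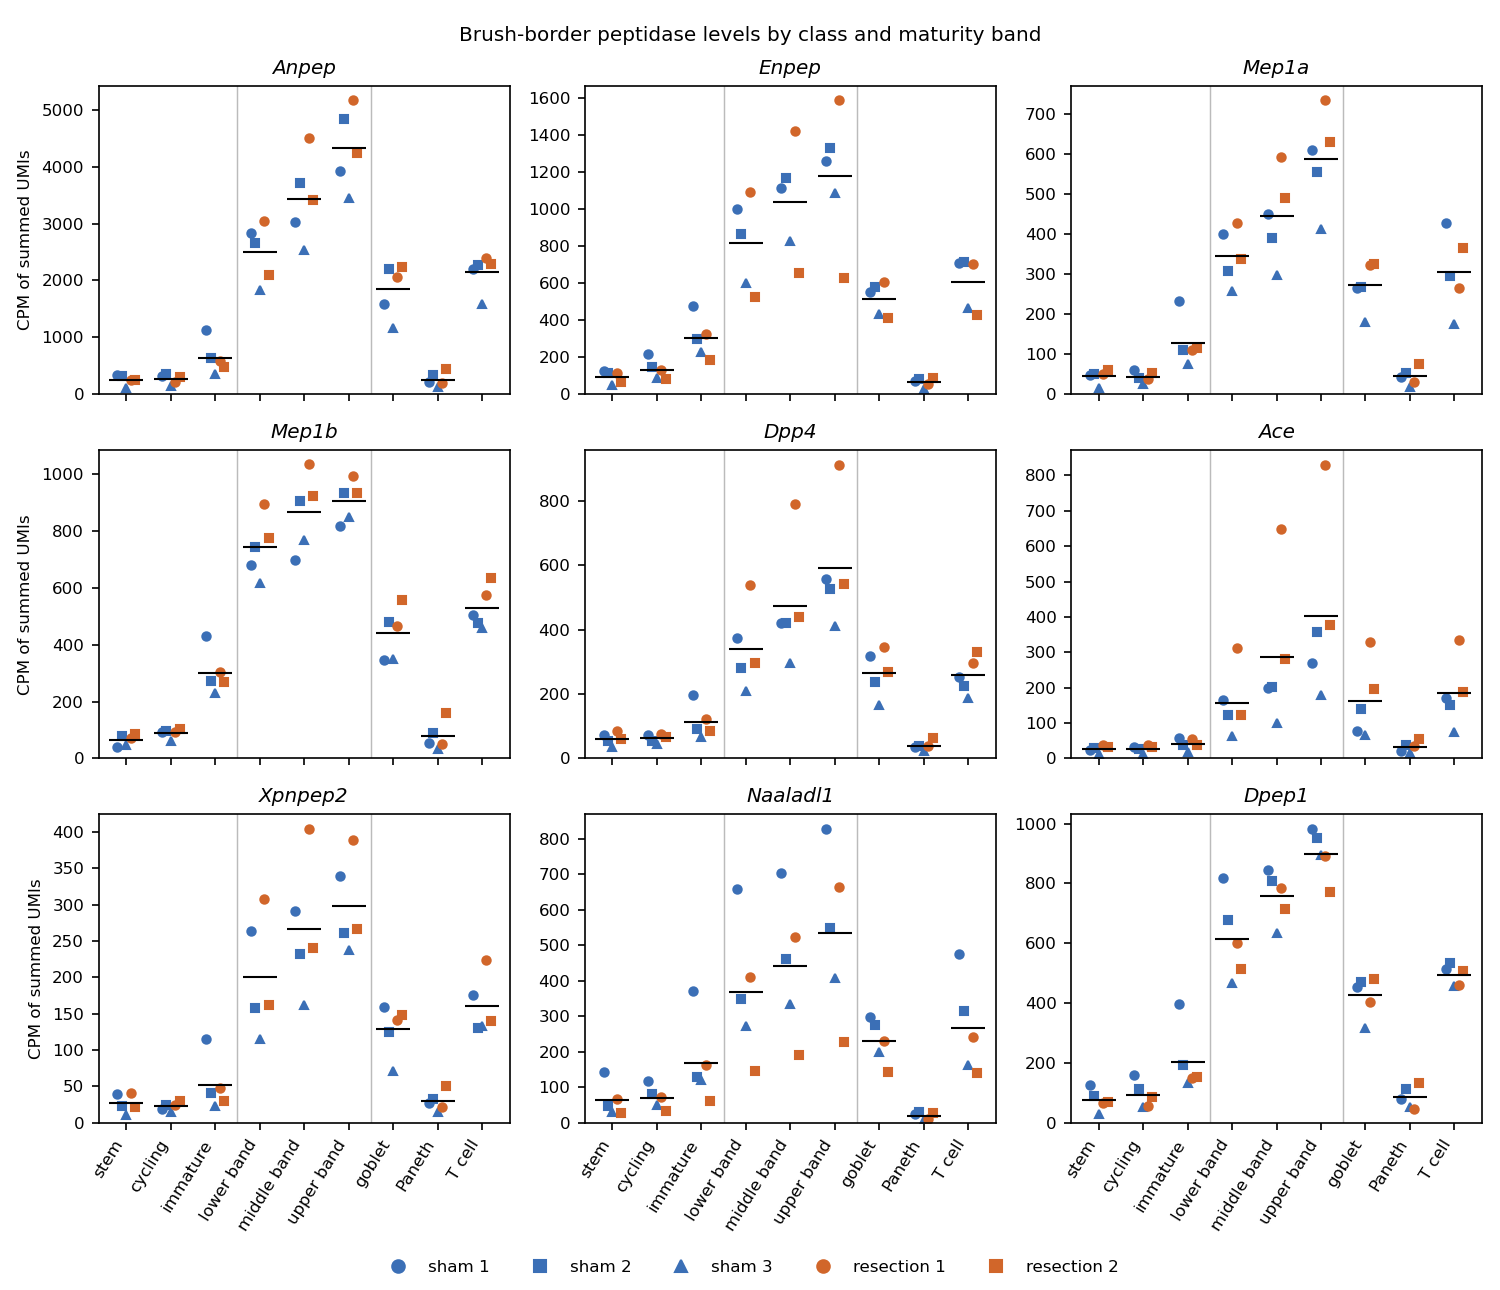
Level of each peptidase gene (vertical axes, CPM of the summed UMIs, linear and from 0) in 9 groups of cells (horizontal axes), with 1 point per library and a black bar at the mean over libraries. Every panel is low in stem-like, cycling-like and Paneth-like cells and highest in the bands of enterocyte-like cells, and goblet-like and T cell-like droplets stand between. Immature cells are intermediate on the mean, but for Ace they lie near the low classes (41.4 CPM against 32.7 in Paneth-like cells).

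Paneth-like cells held Anpep at 259 ± 129 CPM and Naaladl1 at 19.6 ± 10.7 CPM, the latter a median of 3.23% of its enterocyte level. Goblet-like droplets held much more, with Anpep at 1851 ± 462 CPM and Dpep1 at 425 ± 67.6 CPM. T cell-like droplets, which carry lymphocyte transcripts such as Gzma and Cd3g, held Anpep at 2152 ± 321 CPM and Dpep1 at 494 ± 34.6 CPM. Over the 9 genes, the median ratio to the enterocyte level was between 47.9% (Mep1b) and 59.4% (Dpp4) in goblet-like droplets and between 56.6% (Dpp4) and 73.0% (Mep1a) in T cell-like droplets. The summed level of the enterocyte markers in the same droplets was at a median of 54.7% and 65.6% of its enterocyte level. In Paneth-like cells the markers were at a median of 9.97% and the 9 peptidases between 3.23% (Naaladl1) and 14.3% (Ace). Peptidase transcripts thus differed between Paneth-like cells and goblet-like droplets in much the same way as the enterocyte markers, and whether the named cells themselves transcribe them was not tested. The 21 tuft-like cells were too few for a level.

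Single cells showed the same layout after each was thinned to 2000 UMIs, which left out no cell. An Anpep UMI was found in 98.7% of enterocyte-like cells (exact binomial 95% interval 98.5% to 98.9%, for counting error only; 99.9% unthinned), 56.0% of immature cells and 41.2% of Paneth-like cells. Median depths were 4656, 5646.5 and 10048 UMIs in these classes. T cell-like droplets, a type that should lack the brush border, had one in 85.4% (81.8% to 88.5%) at a median depth of 4967 UMIs. For Ace the shares were 40.8% of enterocyte-like cells (64.2% unthinned), 7.65% of immature and 6.52% of Paneth-like cells, and 29.9% of T cell-like droplets. The share in T cell-like droplets lay above that in immature cells for both genes. Dpep1 was seen in 74.7% of enterocyte-like cells and Naaladl1 in 48.6%. At least 5 of the 9 genes were detected together in 78.7% of enterocyte-like cells, 11.2% of immature cells, 1.89% of cycling-like cells and 1.07% of stem-like cells.

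Maturity within the enterocyte-like class was scored per cell as the mean level of 10 upper-villus genes (such as Ada, Nt5e and Slc28a2) minus that of 10 lower-villus genes (such as Reg3b and Reg3g). Cells of each library were divided by this score into a lower, a middle and an upper band of equal size, none of the 9 genes entering the score. A band is a range of a score and not a cell type, and between 14.2% and 19.1% of a library's cells lay within 0.1 SD of a boundary. Paneth marker UMIs stood at a median of 10 per cell in the lower band and 9 in the upper, goblet marker UMIs at 3 in both, and T cell, stem and cycling marker UMIs at 0 in both. The upper band was shallower, with a median of 4204 UMIs per cell against 5180 in the lower. As CPM, the Paneth and goblet marker sums were higher in the upper band of each library. The Paneth sum went from 4157 to 6117 CPM in sham 2 and from 1033 to 1162 in sham 3. The goblet sum went from 898 to 1669 CPM in sham 1 and from 557.5 to 576 in resection 1. The T cell, stem and cycling sums did not move the same way in all libraries.

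All 9 genes were higher in the upper band than in the lower band. Summed counts were compared with edgeR's quasi-likelihood test with the library as a block, and a gene was called at a Benjamini-Hochberg adjusted p below 0.05. Of 9427 genes tested, 1785 (18.9%) were called higher and 1804 (19.1%) lower. The median log2 fold change was 0.70 over the 9 genes and 0.01 over all genes tested. Higher transcript per cell and a larger share of cells with the transcript cannot be told apart in such sums.

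Ace had the steepest gradient. From the lower to the upper band it went from 164 to 271 CPM in sham 1, from 123 to 359 in sham 2, from 64.4 to 179 in sham 3, from 313 to 830 in resection 1 and from 123 to 377 in the other resection library. It was higher in the upper band of each library, and its ratio was the largest of the 9 genes in 5 of 5 libraries. The log2 fold change was 1.44 ± 0.12 (SE, edgeR adjusted p = 2.40e-06).

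Anpep went from 2835 to 3930 CPM in sham 1, from 2653 to 4844 in sham 2, from 1835 to 3454 in sham 3, from 3040 to 5165 in resection 1 and from 2094 to 4248 in resection 2. Its log2 fold change was 0.87 ± 0.11 (edgeR adjusted p = 3.67e-05). The other aminopeptidases had gentler gradients, Xpnpep2 at 0.70 ± 0.11 (edgeR adjusted p = 0.000259) and Enpep at 0.58 ± 0.10 (edgeR adjusted p = 0.000495). Enpep was the gene with the smallest ratio in resection 2, where it went from 527 to 629 CPM. Dpp4 had a log2 fold change of 0.88 ± 0.09 (edgeR adjusted p = 1.34e-05). Its levels ran from 208 to 538 CPM in the lower bands and from 413 to 913 in the upper bands, and they were higher in the upper band of each library.

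The meprin subunits differed in slope. Mep1a had a log2 fold change of 0.83 ± 0.09 (edgeR adjusted p = 1.85e-05) and Mep1b one of 0.35 ± 0.09 (edgeR adjusted p = 0.00755). The CPM of Mep1a per CPM of Mep1b went from 0.585 to 0.744 in sham 1, from 0.413 to 0.595 in sham 2, from 0.417 to 0.486 in sham 3, from 0.478 to 0.738 in resection 1 and from 0.433 to 0.676 in resection 2. It was higher in the upper band in 5 of 5 libraries. The slopes differed by 0.47 ± 0.18 on the log2 scale (SD, n = 5, exact paired permutation test, 2-sided p = 0.0625, which is the smallest that 5 libraries allow). Ace exceeded Dpp4 in slope by 0.53 ± 0.24 and Mep1b by 1.06 ± 0.36, and Anpep exceeded Enpep by 0.29 ± 0.28, each in 5 of 5 libraries at the same exact p (4 pairs compared, chosen after their values were seen; adjusted p = 0.0625). This exact test cannot pass 0.05 with 5 libraries.

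Naaladl1 had a log2 fold change of 0.64 ± 0.09 (edgeR adjusted p = 0.000122) and Dpep1 one of 0.63 ± 0.10 (edgeR adjusted p = 0.000328). Libraries stood far apart in Naaladl1 within a band. Its upper band was at 827 CPM in sham 1, 548 in sham 2, 407 in sham 3, 665 in resection 1 and 228 in resection 2. At 659 CPM, even the lower band of sham 1 stood above the upper bands of 3 other libraries. Dpep1 reached 983, 951 and 896 CPM in the upper bands of the sham libraries and 893 and 770 in those of the resection libraries, a narrower spread.

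A finer view, added after the bands were seen, divided each library's enterocyte-like cells into 10 steps of the score. From step 1 to the highest step of the mean, Ace differed 3.85-fold (113 to 434 CPM), Anpep 2.17-fold, Dpp4 2.15-fold, Mep1a 2.08-fold and Mep1b 1.32-fold. Mep1a was highest at step 10 in 5 of 5 libraries. Xpnpep2 was lower at step 10 than at step 9 in 4 of 5 libraries, with mean levels of 290 and 311 CPM. In resection 2, 8 of the 9 genes were lower at step 10 than at step 8, among them Enpep at 510 against 712 CPM, Ace at 330 against 399 and Dpp4 at 497 against 572. The exception was Mep1a, at 644 against 636 CPM. Each step of sham 1 held only 54 or 55 cells.

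**Figure D2:**
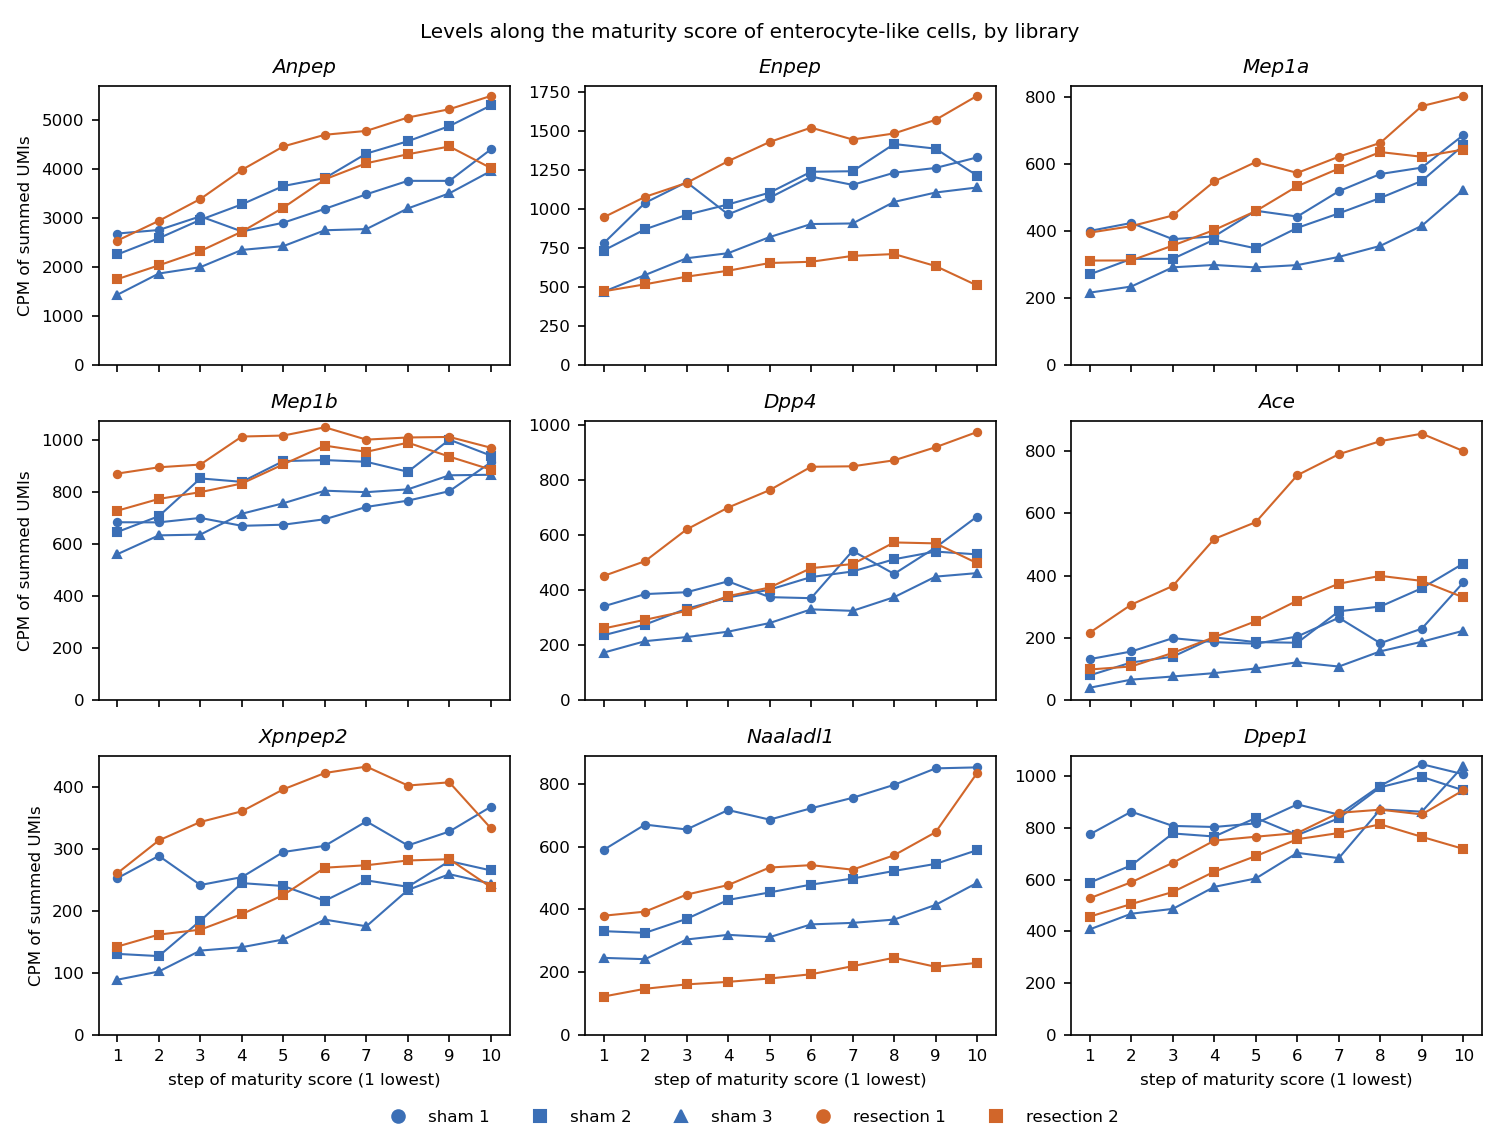
Level of each gene (vertical axes, CPM, linear and from 0) over 10 equal steps of the maturity score (horizontal axes), with 1 line per library. Every line ends above its value at step 1, by much for Ace and by little for Mep1b, and the line of resection 2 is lower at step 10 than at step 8 for each gene but Mep1a.

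The bases before the start sites are shown for the gene with the steepest gradient and for a pair with motif matches among those that rose with it. RefSeq's table of GRCm38.p6 start sites holds 7 of the 9 genes, with 8 windows, and 250 bases before each start were searched on both strands. The letters searched belong to factors known from intestinal genes: CAAAGTCCA for HNF4A, GTTAAT for HNF1, TTTATNG for CDX and GATAA for GATA factors. Matches of different motifs did not overlap in the windows below. Capitals mark matches, and positions count back from the start site. These start sites can differ from the ends of the gene coordinates given above. The Mep1a window lies inside the coordinates given for that gene, and the Dpp4 window overlaps the end of those given for Dpp4. Ace (chr11:105967698-105967947, plus strand) is the upstream of 2 starts listed for that gene and has no match.
Ace: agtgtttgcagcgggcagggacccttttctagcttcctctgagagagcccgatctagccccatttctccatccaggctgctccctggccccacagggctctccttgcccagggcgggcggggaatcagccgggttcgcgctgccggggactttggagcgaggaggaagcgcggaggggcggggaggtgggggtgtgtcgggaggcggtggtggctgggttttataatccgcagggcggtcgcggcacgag
Mep1a (chr17:43502774-43503023, minus strand) has GATA letters, on the opposite strand, beginning at positions -228 and -171.
Mep1a: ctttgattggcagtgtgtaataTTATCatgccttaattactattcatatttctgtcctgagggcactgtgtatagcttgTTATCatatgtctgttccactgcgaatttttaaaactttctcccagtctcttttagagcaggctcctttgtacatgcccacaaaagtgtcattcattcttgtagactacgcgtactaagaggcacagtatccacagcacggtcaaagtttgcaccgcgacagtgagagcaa
Dpp4 (chr2:62412232-62412481, minus strand) has CDX letters, on the opposite strand, at position -228 and GATA letters at position -31.
Dpp4: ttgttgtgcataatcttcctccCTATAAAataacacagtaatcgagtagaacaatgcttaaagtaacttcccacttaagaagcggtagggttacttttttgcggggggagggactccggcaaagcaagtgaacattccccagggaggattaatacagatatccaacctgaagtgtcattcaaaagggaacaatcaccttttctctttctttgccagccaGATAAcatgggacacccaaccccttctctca
GATA letters were found in 3 of the 8 windows (Enpep, Mep1a and Dpp4) and in 22.6% of 32851 windows of the same length, and CDX letters in 1 of 8 and in 9.81%. HNF4A and HNF1 letters were in none of the 8, and in 0.384% and 6.43% of all windows. A match is a run of letters in these windows and was not measured as binding here.

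The maturity gradient did not differ detectably between the surgery groups for any of the 9 genes. In the test of the difference between the gradients, edgeR called 141 of 9427 genes (1.5%) and 0 of the 9, of which 0 had an unadjusted p below 0.05; DESeq2 called 89 genes and also 0 of the 9. The differences, resection minus sham, ran from -0.18 ± 0.17 (Enpep) to 0.25 ± 0.21 (Ace, edgeR adjusted p = 0.758). The ratio of the upper to the lower band was above 1 in each library for each gene.

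In enterocyte-like cells as a whole, no peptidase gene was called different between resection and sham. edgeR called 0 of 10374 genes tested (0%), with 519 at an unadjusted p below 0.05, while DESeq2 called 57, and neither called any of the 9. In simulated counts of this design, a 4-fold change was called in 100% of the changed genes and a 2-fold change in 50%, over 9255 genes. The simulation gave every gene the same spread, held no library sets and changed only well counted genes. Its shares may thus be too high for the real libraries. The 9 genes had a median log2 fold change of 0.20, against -0.02 over all genes tested, with 6 above 0 and 3 below. The summed level of the 7 enterocyte markers ran from 12650 to 27550 CPM in the sham libraries and from 30220 to 54950 in the resection libraries. This difference between the groups was not tested. The upper bands also had a higher median score after resection (-0.73 and -0.85) than after sham surgery (-1.24 to -1.19). So did the middle bands, at -1.375 and -1.459 after resection against -1.693 to -1.586 after sham surgery. The lower bands overlapped, at -1.88 and -1.922 against -2.036 to -1.861. The bands are thus not matched in score between the groups. The part of the markers or of the score in the values below was not tested.

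Levels between groups are given as CPM scaled by edgeR's TMM factors. Ace stood at 181, 238 and 121 CPM in sham 1 to 3 and at 532 and 262 in resection 1 and 2. Both resection libraries lay above the sham range, though resection 2 only just. The log2 fold change was 1.14 ± 0.42 (edgeR adjusted p = 0.938), and it was 0.55 without resection 1 and 1.56 without resection 2. Within set A the log2 ratio was 1.55 and within set B 0.55, both upward. A fit that included the set gave 0.99 ± 0.35 (edgeR adjusted p = 0.398, and 0.181 to 1.0 over 12 alternatives). By band, the log2 fold change was 0.86 ± 0.44 in the lower, 1.44 ± 0.43 in the middle and 1.09 ± 0.42 in the upper band (edgeR adjusted p = 1.0, 0.490 and 0.479). edgeR called 0% of 9059, 0.0223% of 8986 and 0.0927% of 8633 genes in those 3 comparisons and none of the 9 peptidases, with 234, 594 and 776 genes at an unadjusted p below 0.05.

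Mep1a was at 416, 447 and 344 CPM in the sham libraries and 527 and 498 in the resection libraries, a log2 fold change of 0.35 ± 0.29 (edgeR adjusted p = 0.999). The groups did not overlap on this scale, and the log2 ratio was 0.34 within set A and 0.33 within set B. Dpep1 was at 758, 882 and 708 CPM after sham surgery and at 689 and 693 after resection, below the sham range by a small margin (log2 fold change -0.18 ± 0.30). So 2 of the 9 genes lay above the sham range, where 10.5% of all genes tested did, and 1 below, where 8.06% did. The count differed between cell groups. Ace and Mep1a, with Dpp4 added, lay above the sham range in the middle and in the upper band (11.6% and 12.8% of all genes tested), and Mep1a alone did in the lower band (8.15%). Dpep1 lay below in the upper band (10.5%), and none of the 9 did in the lower and middle bands (6.06% and 9.53%). Over all epithelial cells, a sum that mixes the classes, Ace, Dpp4, Mep1a and Xpnpep2 lay above (8.01%) and none below (6.21%). The margins of Dpp4 in the middle band (463.6 CPM in resection 2 against 463.2 in the highest sham library) and of Xpnpep2 over all epithelial cells (147.4 against 146.7) were small. The scaling decides part of this. Without TMM factors Ace and Mep1b lay above the sham range, while Mep1a overlapped (318 to 483 CPM against 468 and 573), as did Dpep1.

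Naaladl1 pointed the other way. It was at 626, 490 and 361 CPM after sham surgery and at 482 and 195 after resection, so that resection 1 lay inside the sham range and resection 2 below it. The log2 fold change was -0.54 ± 0.46 (edgeR adjusted p = 0.999), and it was -0.03 without resection 2 and -1.33 without resection 1. It was -0.38 within set A and -1.13 within set B, and -0.80 ± 0.26 with the set in the fit (edgeR adjusted p = 0.349, and 0.214 to 1.0 over 12 alternatives). Enpep split the resection libraries, at 967, 1215 and 892 CPM after sham surgery against 1240 and 636 after resection, with log2 ratios of 0.36 in set A and -0.73 in set B. Its log2 fold change was -0.13 ± 0.39 and changed sign to 0.27 without resection 2.

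The remaining genes overlapped between the groups in enterocyte-like cells as a whole. Dpp4 was at 386, 440 and 325 CPM after sham surgery and 675 and 439 after resection, with resection 2 just under the highest sham library (log2 fold change 0.54 ± 0.33). Anpep was at 2797, 4010 and 2774 CPM against 3823 and 3331 (0.16 ± 0.35). Xpnpep2 was at 256, 234 and 182 against 335 and 231 (0.34 ± 0.31), and Mep1b at 629, 941 and 799 against 892 and 923 (0.20 ± 0.32).

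**Figure D3:**
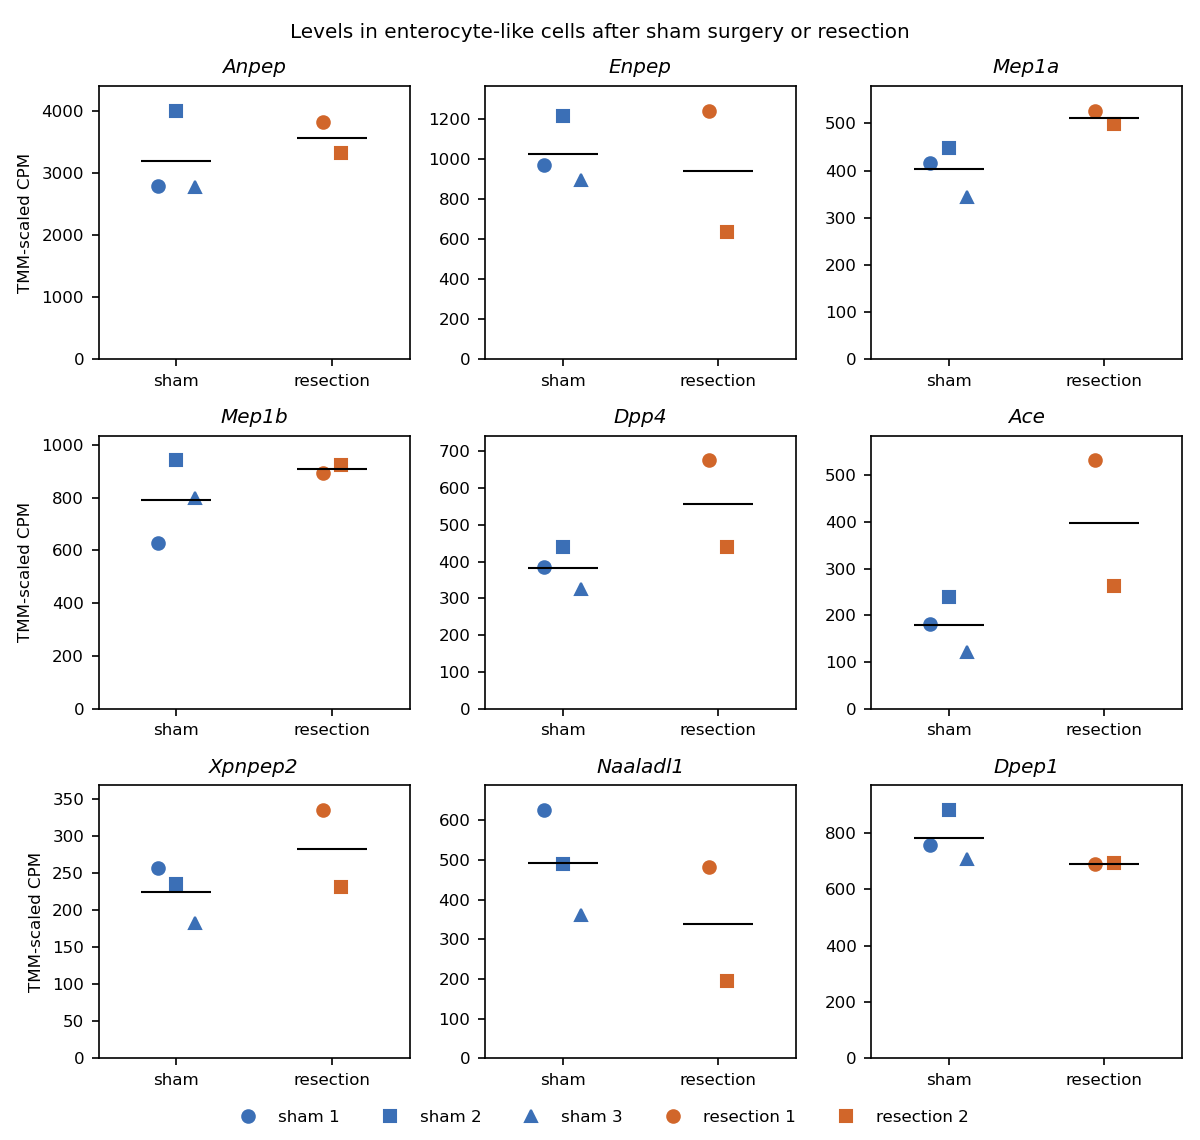
TMM-scaled CPM of each gene in enterocyte-like cells (vertical axes, linear and from 0) after sham surgery (3 libraries) and resection (2 libraries), with a black bar at each group's mean. Ace and Mep1a have both resection points above all sham points, Dpep1 has both below, and Naaladl1 and Enpep have resection points that lie far apart.

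**Figure D4:**
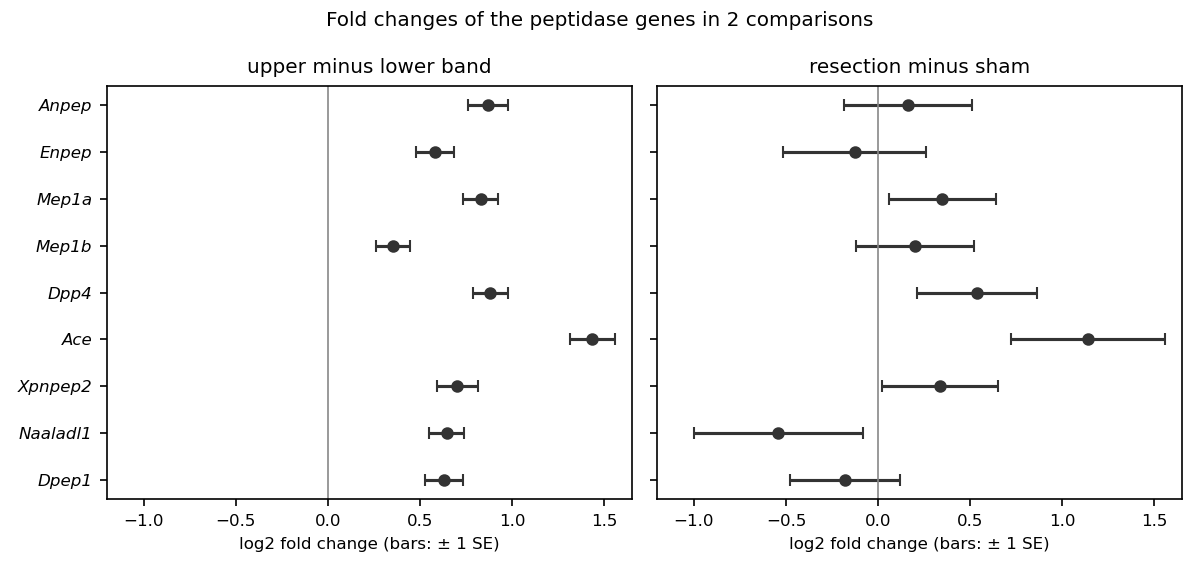
Log2 fold changes of the 9 genes (horizontal axes, bars ± 1 SE) between the upper and the lower maturity band (left) and between resection and sham surgery (right), on the same scale. Every point lies right of 0 on the left, while on the right 6 lie above and 3 below 0, with wider bars.

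In immature enterocyte-like cells, 8 of the 9 genes had negative log2 fold changes after resection and Ace a positive one, but 4 of the negative signs rested on sham 1. Anpep was at 999.5, 713 and 377 CPM in sham 1 to 3 and at 516 and 521 after resection, and Xpnpep2 at 102, 45.4 and 23.8 against 42.5 and 32.3. Sham 1, whose immature cells also had the enterocyte markers at the highest share of their enterocyte level, was the highest sham library for each of the 9 genes. The part of that share in the values was not tested. Without sham 1, 4 genes were negative (Anpep at -0.07, Enpep, Naaladl1 and Dpep1) and 5 positive, Mep1a at 0.13, Mep1b at 0.02, Dpp4 at 0.19, Xpnpep2 at 0.12 and Ace at 0.59, and edgeR called none. Both resection libraries lay above the sham range for 5.92% of all genes tested here and below it for 4.72%, and on neither side for any of the 9. Naaladl1 was at 327, 146 and 129 CPM in the sham libraries and at 143 and 65.4 in the resection libraries, a log2 fold change of -0.94 ± 0.52 (edgeR adjusted p = 1.0) that was -0.40 without sham 1. With the set in the fit it was -1.13 ± 0.15 (edgeR adjusted p = 0.184). Dpep1 had -0.67 ± 0.41 (-0.26 without sham 1), Anpep -0.43 ± 0.44 and Ace 0.29 ± 0.41 (-0.04 without sham 3). edgeR called 0% of 9757 genes here (121 at an unadjusted p below 0.05) and 0% of 11728 over all epithelial cells (331), and 0 of the 9 peptidases in either. The immature cells of sham 1 and resection 1 came from cluster 7 and those of the other libraries from cluster 2.

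Of 16 genes listed here as further surface peptidases, 8 could be tested for surgery and none was called by edgeR. Where in the cell the product of each listed gene sits was not measured, and some may not be confined to the surface. Mme (neprilysin, a zinc endopeptidase) was at 69.9, 85.7 and 44.2 CPM after sham surgery and at 298 and 155 after resection, with no overlap. Its log2 fold change was 1.76 ± 0.40 (edgeR adjusted p = 0.498), upward in both sets. Mme was called by DESeq2 (adjusted p = 0.0102), and also by edgeR without the filter on low counts (adjusted p = 0.000788) and with the replicate block (0.0175); over 12 alternatives its adjusted p ran from 0.000788 to 1.0. The gene Cpm, not to be read as the unit, was at 1.37, 1.11 and 1.28 CPM against 2.25 and 1.98 (0.77 ± 0.38). These levels are very low and rest on few UMIs. Along maturity, Mme (1.91 ± 0.13) and Ggt1 (0.94 ± 0.12), the gamma-glutamyl transferase, rose and Ece1 and Erap1 fell, among the genes of this list that were tested. Mme thus had a larger log2 fold change than any of the 9 peptidases in both comparisons.

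Cytosolic peptidases finish the digestion of absorbed dipeptides and tripeptides. Of 17 genes listed here as cytosolic peptidases, by a location that was not measured, all were tested along maturity. Of these, 5 rose and 1 (Acy1) fell, and 11 did not pass. Lap3, a leucine aminopeptidase, had a log2 fold change of 1.11 ± 0.14, the prolidase Pepd 0.78 ± 0.10 and Dnpep 0.76 ± 0.12, while the list's median was -0.08. For surgery none of the 17 was called by edgeR. Those with the lowest p were Lap3 (0.83 ± 0.35; 298, 521 and 323 CPM against 598 and 756), Thop1 (-0.39 ± 0.29) and Pepd (0.38 ± 0.32).

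Of 18 peptide and amino acid carriers, 14 could be tested along maturity; 8 rose and 2 (Slc38a2 and Slc1a1) fell. The apical carriers Slc6a19 and Slc15a1 had log2 fold changes of 1.80 ± 0.13 and 1.70 ± 0.11, above every one of the 9 peptidases, and Slc3a1 one of 0.94 ± 0.09. The list's median was 0.38, against 0.70 for the peptidases. For surgery none of 16 was called by edgeR. Slc1a1, the carrier of glutamate and aspartate, was at 91.8, 72.0 and 95.3 CPM after sham surgery and 49.96 and 50.3 after resection (-0.78 ± 0.26, edgeR adjusted p = 0.857), without overlap. Slc36a1 was at 33.7, 35.0 and 20.1 CPM against 107 and 24.9 (1.15 ± 0.56), and Slc1a5 at 7.13, 2.62 and 3.02 against 1.90 and 1.69 (-1.14 ± 0.50).

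The 9 genes varied together over stages. Over 25 sums (5 libraries by cycling-like cells, immature cells and the 3 bands), the Pearson correlation of log2(CPM + 10) between pairs of them ran from 0.79 (Ace with Naaladl1) to 0.99 (Dpp4 with Xpnpep2). With library means removed it ran from 0.907 (Ace with Mep1b) to 0.998 (Anpep with Dpep1). These points share libraries, depth and a single course of maturation, so the values are a description. Many other genes varied with them as closely. Ranked by this correlation among 4880 genes, Dpp4 was at rank 1 for Xpnpep2 and Anpep at rank 1 for Dpep1. At the other end, Naaladl1 was at rank 718 for Ace. Among 4880 genes the most alike were Iqgap2, Amn and Slc9a3r1 for Anpep; Emp1, Slc7a7 and 2200002D01Rik for Enpep; and Dpp4, Papss2 and Amn for Xpnpep2. For Dpp4 they were Acsl5, Gda and Gk, at 0.99 each. For Mep1a they were Maf, Cdhr5 and Anpep, and for Mep1b Cyp4f14, Mogat2 and Cndp2. Ace was closest to Cgref1, Treh (the brush-border trehalase) and Cyp4v3, and Dpep1 to Anpep, Slc9a3r1 and Cndp2. Naaladl1 had the loosest neighbours, Slc44a4, Emp1 and Spint1, at 0.97, 0.97 and 0.96.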

How the data were processed

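Droplet single-cell RNA sequencing had been run on 5 ileal epithelial libraries. The matrices deposited by the authors hold raw UMI counts per gene and cell, made with v2 chemistry and Cell Ranger (version 2, with a question mark), per the labels; builds mm10 and GRCm38 are named in the submitters' processing notes. Doublets were treated here: the filters on cells were a minimum of 500 detected genes and a maximum of 20% mitochondrial counts, and the 720 highest-scoring simulated-doublet neighbours (3.80%) were removed. Counts were scaled to 10000 per cell, and 2000 variable genes, without the 9 peptidases, the 3 further lists and mitochondrial genes, gave 30 components and 20 Leiden clusters (leidenalg 0.10.2, resolution 1). Clusters were named by the mean position of class markers. Where a symbol had several rows (56 symbols), the lowest identifier was used.

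UMIs were summed per library and class and fitted with edgeR 4.0.16 (filterByExpr, TMM, quasi-likelihood, all genes adjusted together), with DESeq2 1.42.0 as an alternative. Both comparisons were tested on simulated data. Promoter letters came from RefSeq; Mep1b and Naaladl1 are not shown. Named genes were the 9 peptidases, of each other list the 3 with the lowest p in either comparison, and the 3 most alike genes of each peptidase, among genes with a mean of at least 20 CPM; other genes named from short counts were chosen after their values were seen. A gene that this rule would name is not reported here. Members, lists and tests were chosen with earlier results of these data known. Alternatives were the tool, the count filter, doublets, clustering, scaling within libraries, the score, the replicate block, the library set and leaving out each library.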

Additional observations from a re-analysis of the deposited data

How the results depend on the processing

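For resection against sham in enterocyte-like cells, 0 of the 9 peptidases were called under any of 12 alternatives, while the count over all genes, 0 with edgeR, was 57 with DESeq2, 184 without the filter on low counts, 27 with the library set in the fit and between 0 and 3 when 1 library was left out (3 without resection 2). Leaving out a resection library leaves that group with 1 library, which is then assumed to vary like the sham libraries. The replicate numbers in the labels are shared by 2 sham and 2 resection libraries. With them as a block edgeR called 156 genes and 0 of the 9. Sham 3 is alone in its block and adds nothing to that comparison, so little is left to measure the spread between libraries. Deviations from the group means correlated at 0.75 and 0.33 within the numbered pairs. With 2 resection libraries, their deviations mirror each other. Sham 1 thus stood at -0.75 with resection 2, and sham 2 at -0.33 with resection 1. The values within the pairs are therefore not separate signs of pairing. Nothing in the labels says that a number marks a shared animal or day. The causes of the differences between these counts of called genes were not tested. Enpep was the peptidase whose surgery value changed sign: leaving out 1 library gave log2 fold changes from -0.68 to 0.27, the positive ones without sham 2 (0.00) and without resection 2. In immature cells, where leaving out each library was added after the data were seen, 0 genes were called each time, and the values ran from -0.57 to 0.13 for Mep1a, -0.30 to 0.016 for Mep1b, -0.47 to 0.19 for Dpp4, -0.98 to 0.12 for Xpnpep2 and -0.045 to 0.59 for Ace, each of the first 4 positive only without sham 1 and Ace negative only without sham 3.

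For the upper against the lower band, all 9 peptidases were called higher under all 12 alternatives, Ace from 0.79 to 1.57 and Mep1b from 0.26 to 0.40 on the log2 scale. For the difference of gradients between the groups, the 141 genes became 16 with the upper-villus list alone as the score, 89 with DESeq2 and 16 to 204 when 1 library was left out (79 without sham 1 and 16 without sham 3), with 0 of the 9 each time; the cause was not tested. With doublets kept, or at Leiden resolution 0.5, a Reg3-high cluster stayed unnamed and out of the enterocyte-like class. Thinning lowered the share of cells with a UMI for each of the 9 genes by more than the spread between libraries. In simulated counts of the surgery comparison, with the same spread for every gene and no library sets, 50% of 2-fold changes were called.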

Other observations

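Further readings of the peptidases come from the clusters themselves, each pooled over libraries and given without a test. Cluster 19, with 102 cells of which 68 came from resection 2, led with the villus-tip genes Ada, Slc28a2 and Nt5e. It held Anpep at 2695 CPM and Enpep at 460 CPM, under the 4153 and 701 CPM of cluster 1, the main upper-band cluster of the same library, while Mep1a was at 541 and 595 CPM. Cluster 18, 164 cells led by the interferon-induced genes Isg15, Ifit1 and Rsad2 and drawn from all 5 libraries, held Anpep at 4269 CPM and Dpp4 at 626 CPM, within the range of the other enterocyte-like clusters (2377 to 4889 CPM for Anpep and 274 to 950 CPM for Dpp4).

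The resection 1 clusters differed from each other in the acidic aminopeptidase more than in Ace. Cluster 9, which led with Abcb1a, Slc15a1 and Slc13a1, held Enpep at 2001 CPM, Naaladl1 at 692 CPM and Ace at 619 CPM. Cluster 6, which led with Fabp1, Lct and Apoa4, held Enpep at 924 CPM, Naaladl1 at 419 CPM and Ace at 661 CPM.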
